A study of Mus musculus with 8 samples.

Results

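The 10 genes described here belong to tendon and its matrix and were followed in the embryonic mouse tongue: the regulators Scx, Mkx and Tnmd, the thrombospondins Thbs1, Thbs2, Thbs3, Thbs4 and Comp, and the matrix genes Tnc and Cilp. They were chosen by name, with earlier results of these data known. Every probe set whose platform annotation named one of them and no other gene was taken. This gave 10 of the 18193 genes measured by such probe sets, with 15 of the 45101 probe sets on the array. Tongue buds were compared between mutants, Alk5 fl/fl embryos that also carried Wnt1-Cre, and controls, Alk5 fl/fl embryos without Cre, at embryonic day 13.5. Both groups had the C57BL/6J strain and 4 one-colour Affymetrix arrays each, numbered 1 to 4, and the sex of the embryos was not determined. Alk5, whose gene symbol is Tgfbr1, is the type I receptor of TGF-beta, and both groups carried its floxed alleles. Wnt1-Cre acts in the neural crest, which gives rise to the connective tissue and tendon of the tongue, and not in its muscle cells, so other cells of the mutant bud keep the receptor. No group carried Wnt1-Cre alone, so the transgene itself and the loss of the receptor cannot be told apart.

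Tendon cells arise from progenitors that express scleraxis, a transcription factor that switches on collagen genes and tenomodulin, and TGF-beta is a known inducer of scleraxis in limb and trunk. In the head these progenitors come from the neural crest, while the muscle they attach to comes from mesoderm. Thrombospondins are secreted, calcium-binding glycoproteins that link collagen, other matrix proteins and cell surface receptors. Thrombospondins 1 and 2 form trimers and carry type 1 repeats, whereas thrombospondins 3 and 4 and COMP form pentamers without them.

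In mutants 5 of the 10 genes fell and 1 rose. Thbs4 and Cilp fell more than 3-fold, Thbs2, Tnc and Scx fell less on their brightest probe sets, and Thbs1 rose. Mkx, Tnmd, Thbs3 and Comp did not pass. The test was limma across 18193 genes, each read from its brightest probe set by the average of the 8 arrays, with a call at an adjusted p under 0.05. In that test 9.72% of all genes were called, 5.52% lower and 4.2% higher. The median log2 change of the 10 genes was −0.48, against −0.01 over all genes. Groups did not overlap for the 6 called genes, 5 of them lower and 1 higher, a separation that 17.8% of all genes showed, 8.87% downward and 8.92% upward. Among the 15 probe sets 8 were called lower and 2 higher, where 2.42% and 2.01% of all 45037 probe sets were, or 4.43% together. Groups did not overlap for 8 probe sets downward and 2 upward, against 5.98% and 6.83% of all probe sets, or 12.8% together. Counts often fell in fits without 1 array, where the influence of that array and the smaller number of arrays cannot be told apart. Without control 2 or control 4 the member probe sets called were 5, and without control 3, mutant 2, mutant 3 or mutant 4 they were 6. The genes called lower were 3 without control 2, control 4 or mutant 4. Over all probe sets 1116 to 1592 were called with 1 array left out, against 1994 with all arrays, the fewest without mutant 2. Over all genes 1143 to 1583 were called, against 1768, again the fewest without mutant 2. Fold changes below are of measured signal on the log2 scale, and SE is limma's moderated standard error.

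**Figure D1:**
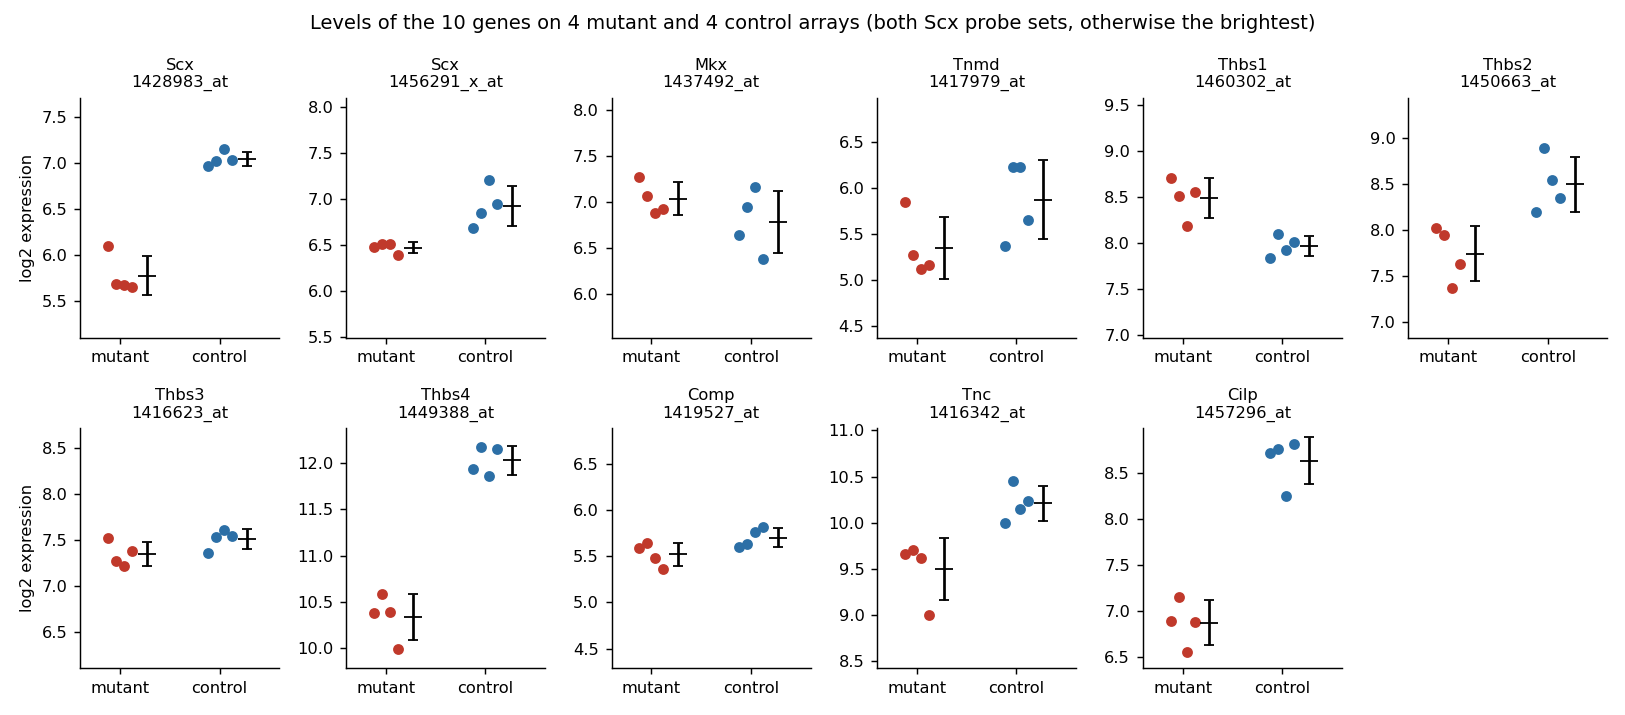
Each panel plots the log2 expression of 1 probe set on the 4 mutant arrays (left, red) and 4 control arrays (right, blue), with the mean and SD of the group beside the points; every axis spans the same number of log2 units. The groups of Thbs4 and Cilp lie more than 1 unit apart, while those of Mkx, Tnmd, Thbs3 and Comp overlap.

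Array medians of all probe sets were 5.96 to 6.01. Correlations between arrays, taken across probe sets, ran from 0.995 to 0.998 among mutants, 0.992 to 0.997 among controls and 0.990 to 0.996 between the groups. Tgfbr1 read 12.39 ± 0.034 in mutants and 12.005 ± 0.099 in controls (SD, n = 4 each) on its brightest probe set. All 3 of its probe sets were called higher in mutants over all probe sets, by 0.39, 0.52 and 0.82 on the log2 scale (limma adjusted p = 0.00800, 0.0414 and 0.0116). Where these probe sets lie relative to the deleted part is not stated, so they check neither the deletion nor the labels. The tissue label was set against muscle and mesenchyme markers. The mean over 14 skeletal muscle markers was 10.39 to 10.70 on mutant arrays and 11.10 to 11.38 on control arrays. For 8 markers of cranial mesenchyme it was 9.18 to 9.38 on mutant arrays and 9.05 to 9.34 on control arrays. Whether the numbered buds came from separate litters is not stated in the labels. The p-values then measure only the spread between these samples, and the number of arrays limits the precision.

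Promoter windows give the context of these genes. They are RefSeq sequences of build GRCm38.p6 that hold 250 bases before and 50 bases after a gene's start, and 6 of the 10 genes matched by symbol or gene identifier. Those of the genes with the largest falls, Thbs4 and Cilp, are shown with that of Thbs2, which also fell, and that of Tnmd, a known target of scleraxis. Capitals mark E-boxes, the letters CANNTG that proteins of the scleraxis family bind, which read the same way on both strands.
Thbs4, chr13:92794769-92795068, minus strand: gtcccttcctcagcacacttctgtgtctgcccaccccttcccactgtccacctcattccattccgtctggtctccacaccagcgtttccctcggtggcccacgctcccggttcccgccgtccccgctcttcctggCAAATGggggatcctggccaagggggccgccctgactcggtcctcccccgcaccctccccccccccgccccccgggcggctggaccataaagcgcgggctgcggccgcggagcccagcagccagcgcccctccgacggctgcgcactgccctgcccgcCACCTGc
Cilp, chr9:65264930-65265229, plus strand: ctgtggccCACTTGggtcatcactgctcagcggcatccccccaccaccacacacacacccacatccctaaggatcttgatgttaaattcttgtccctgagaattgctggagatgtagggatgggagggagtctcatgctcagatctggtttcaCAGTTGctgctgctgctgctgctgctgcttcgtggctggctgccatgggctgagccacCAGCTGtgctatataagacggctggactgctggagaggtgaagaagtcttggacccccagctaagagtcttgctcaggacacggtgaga
Thbs2, chr17:14694213-14694512, minus strand: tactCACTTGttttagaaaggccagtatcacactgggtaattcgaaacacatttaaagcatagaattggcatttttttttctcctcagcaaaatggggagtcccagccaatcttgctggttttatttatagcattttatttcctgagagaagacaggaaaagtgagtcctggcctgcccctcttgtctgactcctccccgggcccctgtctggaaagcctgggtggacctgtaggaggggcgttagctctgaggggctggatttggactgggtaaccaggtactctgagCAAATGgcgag
Tnmd, chrX:133850758-133851057, plus strand: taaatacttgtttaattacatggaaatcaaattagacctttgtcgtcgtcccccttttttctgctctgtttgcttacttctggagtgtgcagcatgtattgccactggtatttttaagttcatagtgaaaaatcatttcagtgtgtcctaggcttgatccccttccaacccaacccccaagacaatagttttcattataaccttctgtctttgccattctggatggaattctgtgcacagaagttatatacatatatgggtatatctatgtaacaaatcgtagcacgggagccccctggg
The Thbs4 window held 2 E-boxes, beginning −115 and 43 bases from the gene's start. The Cilp window held 3, at −242, −97 and −39, and the Thbs2 window 2, at −246 and 39. The Thbs3 window held 1 and the first Tnc window 3. Of the 6 genes 5 therefore had an E-box in the window, where 72.3% of the 32851 windows of the table had one. At least 2 were held by 39.6% of all windows and at least 3 by 17.6%. The Tnmd window held no such letters, which says nothing of sites elsewhere in the gene. The letters CAGAC or their reverse complement GTCTG, which contain the core bound by Smad proteins, stood in the windows of 3 of the 6 genes (Thbs2, Thbs4 and Tnc) and in 49.6% of all windows.

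Scx encodes scleraxis, and its probe sets differed in how far they fell. Probe set 1428983_at read 6.09, 5.68, 5.68 and 5.65 on mutants 1 to 4, against 6.97, 7.02, 7.16 and 7.03 on controls 1 to 4. Every mutant value lay below every control value, and mutant 1 stood above the other mutants. Its log2 change was −1.27 (SE 0.10, limma adjusted p = 0.000354 over all probe sets). The other probe set, 1456291_x_at, has a name that Affymetrix gives to sets whose probes can match other transcripts. It was slightly brighter over the 8 arrays, and so represents Scx in the fit of all genes. It read 6.48, 6.51, 6.51 and 6.39 on mutants, against 6.69, 6.84, 7.20 and 6.95 on controls. The mutants were again below all controls but nearly level with each other, and the log2 change was −0.45 (SE 0.098, limma adjusted p = 0.0204 over genes). Within an array the first probe set minus the second was −0.39, −0.82, −0.83 and −0.73 in mutants, and 0.28, 0.18, −0.04 and 0.08 in controls. The change of the 2 sets thus differed by 0.82 on the log2 scale, a difference noticed in these values and not tested. Over genes, the 1456291_x_at result did not pass without control 4 (adjusted p = 0.0517), without mutant 4 (0.0611) and without variance moderation (0.0724). Over all probe sets it passed (limma adjusted p = 0.0381) but was not called in 8 of 19 alternatives. In that fit the result of 1428983_at held in all 20 alternatives, at −1.40 to −0.91.

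**Figure D2:**
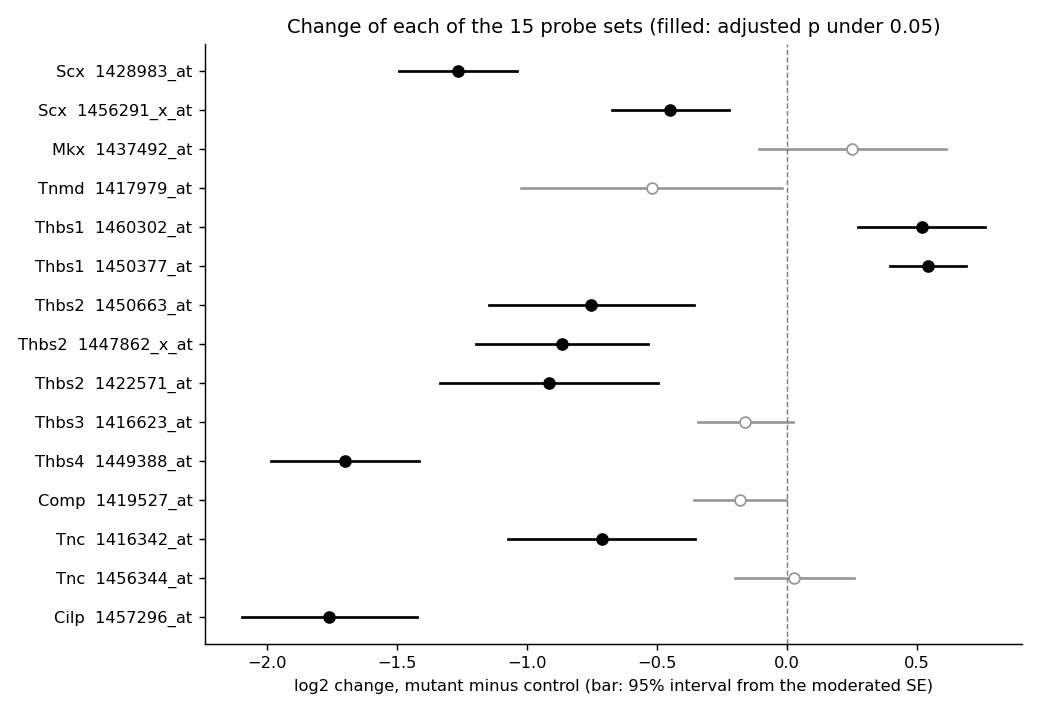
Points give the log2 change, mutant minus control, of each of the 15 probe sets, and bars its 95% interval from the moderated SE; filled points passed an adjusted p under 0.05 over all probe sets. The Scx sets differ at −1.27 and −0.45, the Thbs2 sets lie between −0.92 and −0.75, and the 2 Thbs1 sets lie together on the right of 0.

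Mkx encodes Mohawk, a homeobox factor of tendon differentiation, and it did not follow Scx. It read 7.27, 7.07, 6.88 and 6.93 on mutants, against 6.64, 6.95, 7.16 and 6.39 on controls. The groups overlapped, with the highest value on mutant 1 and the lowest on control 4. Its log2 change was 0.25 (SE 0.16, limma adjusted p = 0.378), with a 95% interval of −0.10 to 0.61 that allows a small fall as well as a rise.

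Tnmd encodes tenomodulin, a membrane glycoprotein of mature tendon cells. It read 5.85, 5.27, 5.12 and 5.16 on mutants, against 5.37, 6.23, 6.22 and 5.65 on controls. Mutants 2 to 4 lay below every control, but mutant 1 stood above controls 1 and 4. Its log2 change of −0.52 (SE 0.22; 95% interval −1.02 to −0.02) did not pass (limma adjusted p = 0.19). The spread of Tnmd within the groups was larger than that of 98.6% of genes. Both group means, 5.35 in mutants and 5.87 in controls, lay below the median of all values, 5.98, and no detection call was used. Mutant 1 and control 1 stand at opposite ends of the second principal component of all genes. Without both arrays, an alternative chosen after seeing the data, Tnmd changed by −0.85 and passed (limma adjusted p = 0.0181). In the same fit Thbs3 passed as well and Thbs1 did not, so that 7 of the 10 genes were called lower and 0 higher.

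**Figure D3:**
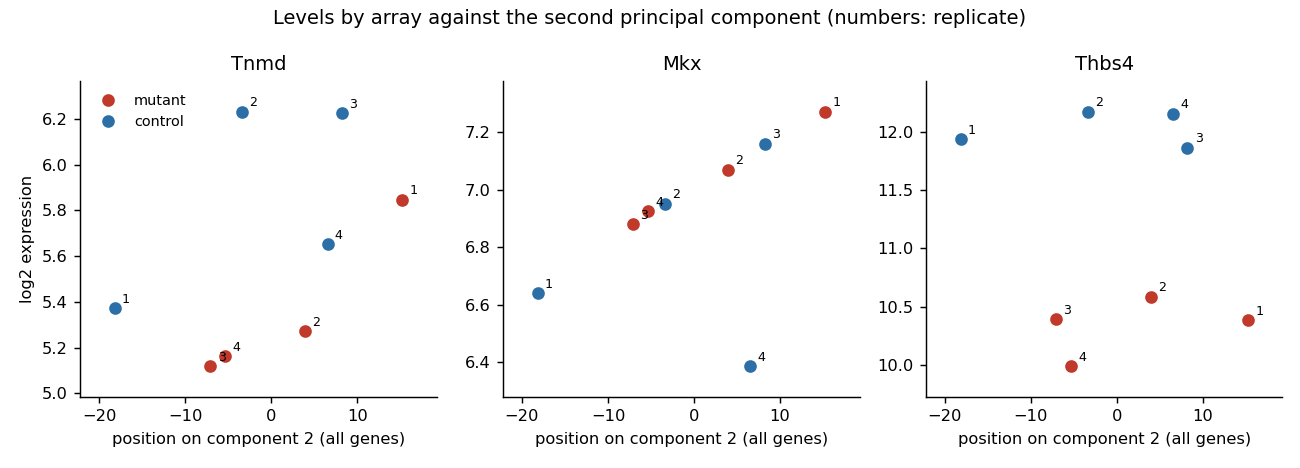
The log2 expression of Tnmd, Mkx and Thbs4 on each array is plotted against the array's position on the second principal component of all genes, in the units of the component; red points are mutants, blue points controls, and numbers are replicates. Tnmd of mutant 1 lies among the controls, while the Thbs4 groups stay apart along the whole axis.

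The 3 regulators were also set against each other within arrays, with exact permutation of the 8 arrays, two-sided and adjusted over the 3 pairs. The smallest p it can give with 4 against 4 arrays is 0.0286. Scx on 1456291_x_at relative to Mkx changed by −0.70 on the log2 scale (exact p = 0.0286, adjusted p = 0.0429). Mkx relative to Tnmd changed by 0.77 (exact p = 0.0286, adjusted p = 0.0429). Scx relative to Tnmd changed by 0.07 (SE 0.23, exact p = 0.743). With 1428983_at in its place the change was −0.75, which passed (exact permutation adjusted p = 0.0286). The sign of Scx relative to Tnmd thus turned with the probe set. The 2 Scx sets differed in their change by 0.82, so pair differences of −0.70 and 0.77 cannot be told apart from differences between probe sets. Without mutant 2, mutant 3 or mutant 4 in turn, 0 of the regulator pairs passed, although 3 against 4 arrays can still reach an exact p of 0.0286.

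Thbs4 encodes thrombospondin 4, a pentamer of tendon and of the muscle attachment, and it showed one of the largest falls on the array. It read 10.38, 10.59, 10.39 and 9.99 on mutants, against 11.94, 12.18, 11.87 and 12.16 on controls. The highest mutant value lay 1.28 log2 units below the lowest control value. The log2 change was −1.70 (SE 0.12, limma adjusted p = 0.000101), a 3.24-fold fall that ranked 21 by size of change among the 18193 genes. The group means were 10.34 ± 0.25 in mutants and 12.03 ± 0.16 in controls (SD, n = 4 each). In mutants the signal still exceeded that of 90.6% of probe sets, where in controls it exceeded that of 97.3%. The call held in all 20 alternatives, at −1.83 to −1.58.

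Thbs2 encodes a trimeric thrombospondin of embryonic connective tissue. The brightest of its 3 probe sets, 1450663_at, gave 8.02, 7.94, 7.37 and 7.63 on mutants, against 8.19, 8.89, 8.55 and 8.34 on controls. All mutants lay below all controls, by a gap of 0.18 between mutant 1 and control 1. The log2 change was −0.75 (SE 0.17, limma adjusted p = 0.0257), and the other 2 probe sets changed by −0.87 and −0.92 (limma adjusted p = 0.0115 and 0.0257 over all probe sets). Over genes, the call of the brightest set was lost without control 2, control 3, mutant 3 or mutant 4 (adjusted p of 0.0578 to 0.0732), without controls 1 and 3 together (0.0542) and without variance moderation (0.0975). Over all probe sets the brightest set passed (limma adjusted p = 0.0456) but was not called in 11 of 20 alternatives. In that fit 1422571_at was not called in 8 of 20, among them those without control 2, control 3, control 4, mutant 3 or mutant 4. The third set, 1447862_x_at, was not called in 3 of 19.

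Thbs1 encodes thrombospondin 1, a trimer known for binding and activating latent TGF-beta, and it was the only one of the 10 genes called higher. Probe set 1460302_at read 8.71, 8.51, 8.18 and 8.55 on mutants, against 7.84, 8.10, 7.92 and 8.01 on controls. The mutants lay above every control, by 0.08 between mutant 3 and control 2. The log2 change was 0.52 (SE 0.11, limma adjusted p = 0.0154), or 1.43-fold. The dimmer set, 1450377_at, read 6.91, 6.79, 6.70 and 6.86 on mutants, against 6.23, 6.38, 6.29 and 6.20 on controls. It showed a like change of 0.54 (SE 0.065, limma adjusted p = 0.00242 over all probe sets) with a wider gap between the groups. A probe set shared in the annotation by Thbs1 and Pald1 is no member, and it differed by 0.40 without passing (limma adjusted p = 0.135). Over genes, the call of 1460302_at was lost without controls 1 and 3 (0.43, adjusted p = 0.105), without mutant 1 and control 1 (0.40, 0.0608) and without variance moderation (adjusted p = 0.0645). Over all probe sets 1460302_at passed (limma adjusted p = 0.0289) but was not called in 11 of 20 alternatives. Of those fits without 1 array, only 1 called it. In the same fit over all probe sets, the call of 1450377_at held in all 20 alternatives.

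Thbs3 and Comp, the other pentameric members, differed little. Thbs3, a matrix gene of the growing skeleton, read 7.52, 7.28, 7.22 and 7.39 on mutants, against 7.36, 7.53, 7.61 and 7.55 on controls, and the groups overlapped. Its log2 change was −0.16 (SE 0.079, limma adjusted p = 0.258), with a 95% interval of −0.34 to 0.02. Comp, a collagen-binding protein of cartilage and tendon, read 5.59, 5.65, 5.49 and 5.36 on mutants, against 5.60, 5.63, 5.76 and 5.82 on controls. Only mutant 2 stood above any control, and the change was −0.18 (SE 0.076, limma adjusted p = 0.185; 95% interval −0.35 to −0.01). Both Comp means lay below the median of all values.

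On their brightest probe sets the thrombospondins changed by unequal amounts. Of the 10 pairs within the family, 9 differed in their change (exact permutation p = 0.0286, the smallest possible, adjusted p = 0.0317 over the pairs). Thbs4 changed by −1.52 relative to Comp, −1.54 relative to Thbs3, −0.95 relative to Thbs2 and −2.22 relative to Thbs1. Thbs2 relative to Thbs1 changed by −1.27 (SE 0.13), so that the 2 trimeric members parted. Comp and Thbs3 each changed by 0.57 and 0.59 relative to Thbs2 and by −0.70 and −0.68 relative to Thbs1. The remaining pair, Comp relative to Thbs3, changed by −0.02 (SE 0.098, exact p = 0.8). With 1 array left out 7 to 9 pairs passed. The test reads 1 probe set per gene, and the 2 probe sets of Scx alone differed in their change by 0.82. Pair differences smaller than that cannot be told apart from differences between probe sets.

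**Figure D4:**
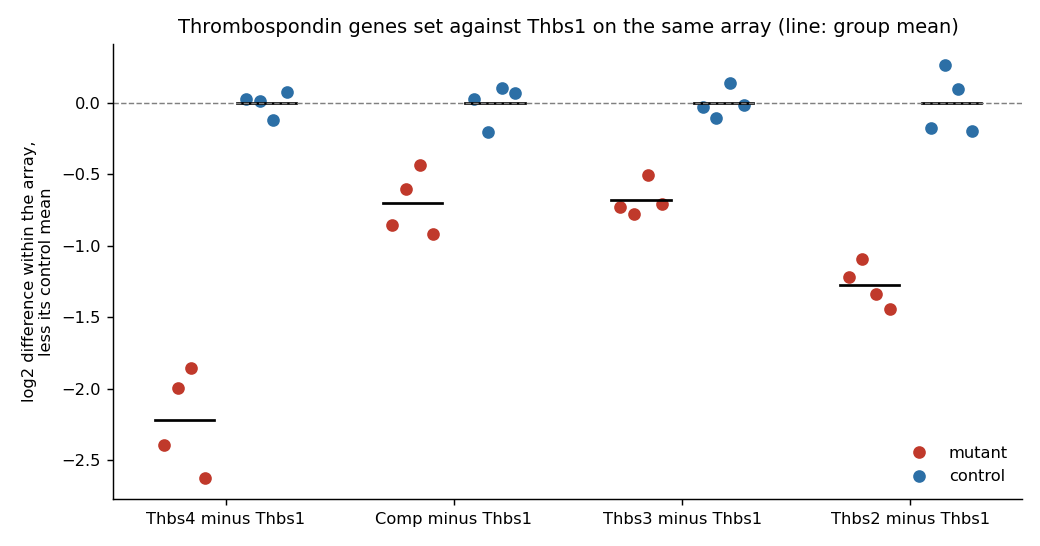
For Thbs4, Comp, Thbs3 and Thbs2, the log2 value minus that of Thbs1 on the same array is plotted after subtracting its mean over the controls; red points are mutants, blue points controls, and lines group means. The mutant means lie at −2.22, −0.70, −0.68 and −1.27, and no mutant point reaches the controls.

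Tnc encodes tenascin C, a matrix glycoprotein of embryonic mesenchyme and of tendon. Probe set 1416342_at read 9.66, 9.71, 9.62 and 9.0 on mutants, against 10.001, 10.45, 10.15 and 10.24 on controls. All mutants lay below all controls, with mutant 4 far below the rest. This was a log2 change of −0.71 (SE 0.16, limma adjusted p = 0.0217), and without mutant 4 it was −0.55 (adjusted p = 0.0159). Over genes, the call was lost without control 2 (adjusted p = 0.0625), control 4 (0.0549), variance moderation (0.0872) and with the mean of both probe sets (−0.34, 0.0545). Over all probe sets 1416342_at passed (limma adjusted p = 0.0389) but was not called in 11 of 20 alternatives. The other set, 1456344_at, read 3.55 in mutants and 3.52 in controls, where at most 9.27% of probe sets were dimmer. It therefore carries little measured signal.

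Cilp encodes cartilage intermediate layer protein, a secreted matrix protein known to bind TGF-beta, and it fell as far as Thbs4. It read 6.89, 7.16, 6.56 and 6.88 on mutants, against 8.72, 8.75, 8.25 and 8.81 on controls. The groups were 1.09 log2 units apart at their nearest values, and control 3 was the lowest control. The log2 change was −1.76 (SE 0.15, limma adjusted p = 0.000202), a 3.39-fold fall that ranked 15 by size among all genes, and its call held in all 20 alternatives, at −1.91 to −1.52.

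Markers of other cells in the bud were read on the same arrays. The summed linear signal of 14 skeletal muscle markers, on the log2 scale, was 15.40 to 15.71 on mutant arrays and 16.09 to 16.27 on control arrays, and 12 of the 14 fell. Of 10 cartilage markers only Col9a1 was called, at 11.12 in mutants and 10.13 in controls. The other 9 did not pass, and 5 of the 10 were higher and 5 lower in mutants, with a median of −0.0045. The sums of the 10 cartilage markers, Col9a1 included, were 11.44 to 11.69 on mutant arrays and 10.75 to 11.09 on control arrays. Of 10 macrophage and leukocyte markers 4 fell, with sums of 10.81 to 11.46 on mutant arrays and 11.47 to 11.61 on control arrays. All 10 were lower in mutants, called or not, with a median log2 change of −0.34. Of 8 endothelial markers 3 rose, with sums of 11.36 to 11.59 on mutant arrays and 11.09 to 11.15 on control arrays. All 8 were higher in mutants, with a median of 0.31. Of 8 neuronal markers 5 fell and 2 rose, among them Stmn2 at −1.95 and Nefl at 1.63, with sums of 11.51 to 11.76 on mutant arrays and 11.04 to 11.22 on control arrays. The neuronal mean of log2 values ran the other way, at 7.21 to 7.34 on mutant arrays and 7.49 to 7.69 on control arrays. Of 5 measured markers of Schwann cell precursors 3 fell, with sums of 10.93 to 11.33 on mutant arrays and 11.34 to 11.68 on control arrays. All 5 were lower in mutants, with a median of −0.35. Of 8 markers of smooth muscle and pericytes 3 fell, with sums of 13.59 to 13.79 on mutant arrays and 13.87 to 13.95 on control arrays. In this list 6 were lower and 2 higher in mutants, with a median of −0.21. Epithelial and cranial mesenchyme markers had 1 called of 8 each, Krt18 at −0.34 and Prrx1 at 0.76. All 8 epithelial markers were lower in mutants, with a median log2 change of −0.25. Of the mesenchyme markers 3 were lower and 5 higher, with a median of 0.02. The sums of both lists overlapped between the groups. No marker can be called absent, since the values hold no detection call. The part of these cells in the changes of the 10 genes was not tested. In whole buds, fewer cells of a type and less RNA per cell cannot be told apart.

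Among 30 other tendon genes, a list that holds collagens, proteoglycans and growth-response factors, 14 fell and 2 rose, with a median log2 change of −0.39. The largest called changes were those of Chodl, a membrane lectin gene, at −1.83 (SE 0.22), and of Aspn, the proteoglycan asporin, at −1.62 (SE 0.17). Ogn, the proteoglycan osteoglycin, fell by 1.05, and Col14a1, a collagen of fibril surfaces, changed by −1.14 on its brightest probe set. The other Col14a1 sets, at −0.39 and 0.04, did not pass, and its call was lost in 2 of 20 alternatives. The 2 genes that rose, named after their values were seen, were Lum (0.58) and Col3a1 (0.24). A count of 2 was kept in 6 of 20 alternatives, and with any 1 array left out it was 0 or 1. Some of these genes are known to serve connective tissue in general, and the list was drawn up with earlier results of these arrays known.

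Of 19 measured genes of muscle attachment 7 fell and 0 rose, with a median of −0.24. Ankrd1, a stretch-responsive ankyrin repeat gene, changed by −1.68 (SE 0.29) and Itgb1bp2, the muscle integrin partner melusin, by −1.28. Col22a1, a collagen of the myotendinous junction, changed by −0.66, a call lost in 6 of 20 alternatives, and its other sets, at −0.46 and −0.0083, did not pass. For Itga7, the laminin receptor subunit of muscle, the change was −0.41, lost in 14 of 18. Ankrd1, Itgb1bp2 and Itga7 are known as genes of muscle cells, whose markers moved on the same arrays.

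Of 20 receptors of thrombospondins and tenascins 4 fell and 2 rose, and the median was −0.09. Itgb3, the beta subunit of an integrin that binds thrombospondin and tenascin C, rose by 1.27 (SE 0.10, limma adjusted p = 0.000157) on 1455257_at, while its dimmer set changed by 0.10. Cd36, a scavenger receptor that binds the type 1 repeats, fell by 0.80 (SE 0.14), while its other sets changed by −0.94, which passed, and by −0.34, which did not. Cacna2d1, a calcium channel subunit that binds thrombospondins, changed by −0.51 on its brightest set. Of its 4 other sets 1 passed, at −0.72, and those at −0.36, −0.27 and 0.13 did not. The calls of Cd36 and Cacna2d1 were each lost in 2 of 20 alternatives. Itga6, a laminin receptor subunit, changed by −0.25, and 10 of 20 alternatives did not call it; its other set was at −0.01. Without control 2, mutant 2, mutant 3 or mutant 4 in turn, 2 receptors were lower and 1 higher.

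Among 23 measured genes of the signals upstream of tendon, 5 fell and 4 rose, with a median of 0.02. Those that rose, named after their values were seen, were Acvr2b (0.41), Tgfbr1 (0.39), Tgfbr3 (0.36) and Tgif1 (0.24). Tgfbr1 is the floxed gene itself, and where its probe sets lie relative to the deleted part is not stated. Tgfb3, a ligand of the receptor that was inactivated, changed by −0.67 (SE 0.094), and Tgfbr2, its type II receptor, by −0.47, though the other Tgfbr2 probe sets changed by −0.09 and −0.07. Spry1 and Spry4, feedback inhibitors induced by FGF, changed by −0.67 and −0.61, though the other 3 Spry4 sets, at −0.29, −0.24 and −0.14, did not pass.

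The type 1 repeat occurs in many other proteins, and those genes showed no common direction. Of 47 measured, 7 fell and 3 rose, with a median of −0.02. Adamts3, a procollagen protease, rose by 0.85 (SE 0.17), but its dimmer set changed by −0.16 without passing, and the call was lost in 2 of 20 alternatives. Thsd4, which encodes a protein of microfibrils, changed by −0.71, while its other set, at 0.09, did not pass, and the mean of both sets gave −0.31 with the call lost. Adamts8, a protease gene, changed by −0.67 (SE 0.056). Hmcn1, encoding hemicentin, rose by 0.52, and 10 of 20 alternatives did not call it. With 1 array left out 4 to 5 of these genes were lower and 1 to 2 higher, with 4 lower and 1 higher without control 3, control 4, mutant 2 or mutant 4, 4 lower without mutant 3 and 1 higher without control 2.

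Of 12 relatives of tenascins, matrilins and other matrix proteins 1 fell and 1 rose. Smoc1, a calcium-binding matrix protein related to SPARC and known as a modulator of BMP signalling, rose by 1.62 (SE 0.087, limma adjusted p = 2.95e-05), and its call held in all 20 alternatives. Matn2, encoding matrilin 2, changed by −0.46, and 8 of 20 alternatives did not call it. The count of genes lower was 0 without control 2, control 3, mutant 3 or mutant 4 and 2 without control 4. The other tenascins, Tnr, Tnxb and Tnn, did not pass, and neither did Cilp2, the paralog of Cilp, at −0.06 (limma adjusted p = 0.676).

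**Figure D5:**
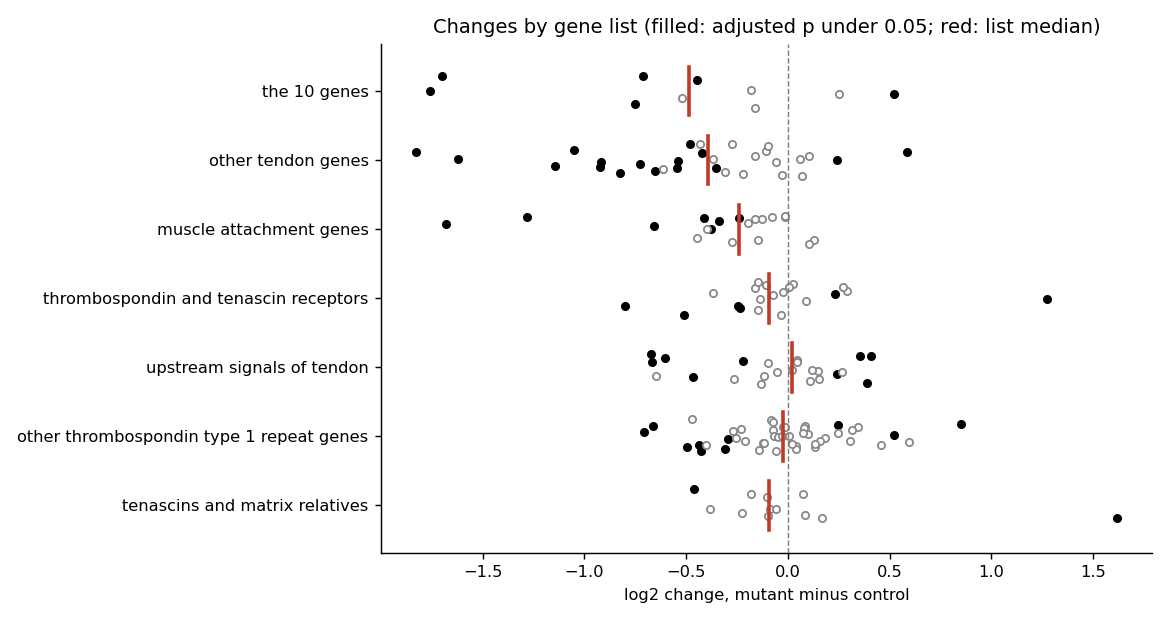
Each point is the log2 change, mutant minus control, of 1 gene, by list, with filled points for genes called at an adjusted p under 0.05, red lines for list medians and vertical jitter without meaning. The medians of the 10 genes and the other tendon genes lie at −0.48 and −0.39, while those of the type 1 repeat genes and upstream signals lie at −0.02 and 0.02.

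The genes whose log2 values ran most like those of 3 members were sought over the 8 arrays, which share the difference between the groups. For Tnmd, they were Cnmd, Htra3 and Prokr1, with Pearson r of 0.995, 0.992 and 0.981, and 0.994, 0.987 and 0.969 once each group was centred on its mean. Cnmd encodes chondromodulin, the closest relative of tenomodulin. Its mean was 5.36 in mutants and 6.30 in controls, a change of −0.94 that did not pass (limma adjusted p = 0.234). For Scx on 1456291_x_at the genes were Cnn2 (0.982), Adamtsl3 (0.980) and D830025C05Rik (0.976), with 0.934, 0.948 and 0.940 within groups. For Thbs4 they were Slc1a4 (0.993), Fibin (0.991) and Bmper (0.988), with 0.892, 0.805 and 0.668 within groups. Of these, Bmper, a secreted modulator of BMP, fell by 1.36 and Fibin, which encodes a secreted protein, by 1.16. With 18193 genes to choose from and 8 arrays, such values describe these arrays only.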

How the data were processed

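RNA of 8 tongue buds, 4 mutant and 4 control, was measured on one-colour Affymetrix arrays, per the labels. What the authors deposited is 1 log2 expression value per probe set and array. The submitters' processing notes name RMA, a method that removes background and forces arrays to 1 distribution, so a shift shared by most genes can be lost. Version and settings of RMA were not given in the sources read.

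Probe sets were named through GEO's platform annotation: 34945 named 1 gene, 932 several and 9160 none, beside 64 controls. Through gene identifiers 34741 matched RefSeq (GRCm38.p6) and 0 symbols changed, and 8 list genes were found under newer symbols. Of the 238 list entries, 8 matched no probe set with a single gene name and were not used here.

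Mutants were compared with controls by linear models (limma 3.58.1 under R 4.3.3, lmFit then eBayes, two-sided, Benjamini-Hochberg), over genes and over all probe sets that are not controls. The fit was tested on simulated data. No dim probe sets were filtered out. Pairs of members were compared by exact permutation over the arrays. Besides the members and all their probe sets, the text names the 4 called genes with the largest change of each gene list and the 3 genes most correlated with Scx, Tnmd and Thbs4. Other genes are named as chosen after their values were seen, as members of a marker list or as not having passed. The members and lists were chosen with earlier results of these data known.

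Alternatives were a second quantile normalization, arrays centred on their medians, a block for the replicate number, a filter on dim features, an offset of 32 on the linear scale, trended and robust or no variance moderation, array weights, other choices of probe sets, and fits without 1 or 2 arrays.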

Additional observations from a re-analysis of the deposited data

Results flagged for a closer look

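Of 30 groups of 4 arrays, 3 held a value far from the other 3 by Dixon's criterion (the gap to the nearest value over the range), where chance gives about 5% of groups. Scx probe set 1428983_at of mutant 1 read 6.09, with the other mutants at 5.65 to 5.68 (gap over range 0.929). Tnc probe set 1416342_at of mutant 4 read 9.0, with the other mutants at 9.62 to 9.71 (0.875). Cilp probe set 1457296_at of control 3 read 8.25, with the other controls at 8.72 to 8.81 (0.830). In each of these cases the mutants still lay below every control.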

How the results depend on the processing

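Thbs4, Cilp and Scx on 1428983_at were called lower in all 20 alternatives, and Thbs1 on 1450377_at was called higher in all 20. No member gene or probe set past the threshold changed direction. Where a count moved or a sign turned, the cause was not tested. Same-numbered arrays did not deviate together (correlations of −0.58, −0.13, −0.34 and −0.38), so the replicate numbers were not taken as pairs. With the replicate block, 966 genes were called in place of 1768 (329 higher, 637 lower), 663 probe sets in place of 1994 (227 higher, 436 lower), and 4 member probe sets in place of 10 (1 higher, 3 lower). In that fit other tendon genes had 1 called higher, type 1 repeat genes 1 higher and 4 lower, and receptors 1 higher and 2 lower. Without variance moderation, 636 genes were lower in place of 1004, 1229 probe sets were called (592 lower), 2 member genes were called in place of 6 (0 higher, 2 lower) and 4 member probe sets (1 higher, 3 lower). There, other tendon genes had 0 higher, type 1 repeat genes 0 higher and 4 lower, receptors 2 lower and tenascin relatives 0 lower. Without controls 1 and 3, 481 genes were higher in place of 764, 1154 probe sets were called (506 higher, 648 lower), 0 member genes were higher, and 5 member probe sets were called (1 higher, 4 lower). In that fit other tendon genes had 0 higher, type 1 repeat genes 1 higher, upstream signals 2 higher in place of 4 and tenascin relatives 0 lower. Without mutant 1 and control 1, chosen after seeing the data, 1320 probe sets were called (489 higher), 0 member genes and 1 member probe set were higher, other tendon genes had 1 higher, and receptors 1 higher and 2 lower. Probe sets called higher numbered 1506 with dim features left out and 1474 with the offset, against 903. Other tendon genes had 1 higher after repeated quantile normalization or trended and robust moderation. With the mean of all probe sets type 1 repeat genes had 1 higher, and tenascin relatives 2 higher and 0 lower. The tenascin relatives called lower were 2 with array weights and 0 without cross-matching probe sets. For the exact pair tests, the replicate block (smallest p 0.125), 4 against 2 arrays (0.0667) and 3 against 3 arrays (0.1) cannot pass, so 0 regulator pairs and 0 thrombospondin pairs were called there, which says nothing of stability. Leaving out 1 array gave 1143 to 1583 genes (428 to 623 higher, 687 to 960 lower), 1116 to 1592 probe sets (430 to 685 higher, 647 to 932 lower), 4 to 6 member genes (3 to 5 lower) and 5 to 9 member probe sets (1 to 2 higher, 4 to 8 lower). It gave 0 to 1 other tendon genes higher, 1 to 2 type 1 repeat genes higher and 4 to 5 lower, 1 to 2 receptors higher and 2 to 5 lower, 0 to 2 tenascin relatives lower, 0 to 2 regulator pairs and 7 to 9 thrombospondin pairs. Signs turned for 3 values, none of which had passed in the main fit. Tnc on the dim 1456344_at was −0.040 without controls 1 and 3, and with 1 array left out −0.0287 to 0.11. Comp relative to Thbs3 was 0.025 with the offset, 0.013 after quantile normalization, 0.029 without mutant 1 and control 1, and −0.088 to 0.043 with 1 array left out. Scx relative to Tnmd was −0.75 without cross-matching probe sets, −0.34 with the mean of probe sets, −0.026 with the offset, and −0.074 to 0.23 with 1 array left out. Of these only the value without cross-matching probe sets passed (exact permutation adjusted p = 0.0286). The dim filter left no value for Tnmd and Comp, and no filter, moderation or weights apply to the pairs.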
